A study of Mus musculus with 4 samples.

Results

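The 40 genes described here encode the proteins of nucleotide excision repair and part of base excision repair. They were chosen by name, as the pathways that act on bulky DNA adducts and oxidized bases, and all 40 were among the 14157 genes listed in the deposited table. The RNA came from 4 tumours of the esophagus in C57BL/6 mice, each induced with 4NQO (4-nitroquinoline 1-oxide), a carcinogen whose metabolites attach to purine bases and also lead to oxidized guanine. Replicates 3 and 6 were wild type (WT), and replicates 1 and 8 carried the genotype given as S100A14 CKO, called KO here, which leaves n = 2 in each group. The driver of the deletion, the age of the mice and whether each library came from its own animal are not stated in the labels, so the p-values reflect only how far these samples differ, which may be technical. The comparison asked whether the repair genes differ between KO and WT tumours.

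In nucleotide excision repair, a helix-distorting lesion is found either anywhere in the genome, by the XPC complex and the DDB1-DDB2 ubiquitin ligase, or at a stalled RNA polymerase, by CSB and CSA. Both routes bring in TFIIH, whose helicases open the helix, then XPA and RPA, and the nucleases XPF-ERCC1 and XPG cut out a short strand that the replication polymerases refill and ligases seal. In base excision repair a glycosylase such as OGG1 removes a single damaged base, APEX1 cuts the backbone, and PARP1, XRCC1 and LIG3 hold and close the nick. These pathways are active in most tissues, and inherited loss of several of the nucleotide excision repair genes causes xeroderma pigmentosum or Cockayne syndrome in humans.

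The values are the authors' scaled read signals, in which each library was divided by its own factor. One read was worth between 0.193 and 0.318 of a scaled value. The libraries held 11132019 to 16182109 reads in listed genes, of which ribosomal RNA genes took 47.0% to 76.4%, and nuclear protein-coding genes were left with 1052423 to 2107060. S100a14, the deleted gene, counted 463 and 347 reads in the WT libraries, none in KO replicate 1 and a single read in KO replicate 8. It was the 1 gene of the whole table called in limma (log2 difference −6.48 with a pseudocount of 1, adjusted p = 0.0211), and the size of this value depends on the pseudocount. KO replicate 8 stood apart: over 12304 genes the Pearson coefficient of its log2 values with each other library was 0.769 to 0.816, while the remaining pairs of libraries reached 0.908 to 0.915. Over the 40 repair genes the same values were 0.855 to 0.881 and 0.883 to 0.924. These coefficients describe genes of the same libraries and share their depth. Of the squamous keratinocyte markers, the 10 listed genes summed to 53084 and 33958 in WT, against 27645 and 5249.5 in KO. Krt6a and Krt14, the most abundant of them, were present in every library.

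None of the 40 repair genes passed the test for a difference between KO and WT tumours. All 40 passed the filter on low values (1 or more in 2 or more libraries) and were tested. In limma on log2(value + 1), with Benjamini-Hochberg adjustment over 12304 genes, 0 of 40 passed an adjusted p of 0.05, against a background of 0.00813% of all genes tested. At an unadjusted p under 0.05, 0 of the 40 stood out in limma, where 5.25% of all genes did, 0 of 39 in edgeR's quasi-likelihood test (background 5.03%) and 0 of 40 in DESeq2 (background 4.78%). By adjusted p, 0 of 40 were called without KO replicate 8 (background 0.0488%) and 0 of 40 without KO replicate 1 (background 4.14%), and 0 of 40 in DESeq2 (background 0.462%). Their adjusted p-values ran from 0.927 to 0.998. The authors' deposited table likewise gave 0 of the 40 an adjusted p under 0.05, with 0.882 as the smallest, and 106 of all its genes.

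The genes lay on both sides of 0. In KO 18 of the 40 were lower (45%), beside 52.5% of all genes tested, and 22 were higher. Their median log2 difference was 0.04, beside −0.03 for all genes, and the extremes were −0.80 for Xrcc1 and 0.73 for Parp1. No repair gene reached an absolute log2 difference of 1, which 13.2% of all genes tested did, and 9 of the 40 (22.5%) reached 0.5, beside 39.2%. Without KO replicate 8, 14 of the 40 were lower in KO, beside 51.5% of all genes, and the median was 0.13. The count was 21 without KO replicate 1, 16 without WT replicate 3 and 23 without WT replicate 6, beside 53.3%, 50.3% and 55.3% of all genes. The medians were then −0.05, 0.10 and −0.13. Both KO libraries lay below both WT libraries for 6 repair genes (15%, background 19.3%) and above them for 7 (17.5%, background 14.5%). In bulk tumour RNA, fewer cells of a type and less RNA per cell cannot be told apart.

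The size of a difference that these libraries allow is wide. All 40 of the 95% intervals of the log2 difference included 0, and their half-width had a median of 1.21 and a range of 0.96 to 1.81. For 39 of the 40 genes the interval reached −1 or 1 on the log2(value + 1) scale, while for 39 it stayed within −2 and 2. The exception at 1 was Gtf2h1, with an interval of −0.92 to 0.996, and the exception at 2 was Ddb2, with −2.29 to 1.32. For genes with low values, the fold change of the value itself can be larger than these limits. The test therefore does not show that the genotypes have the same level of any one gene.

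**Figure D1:**
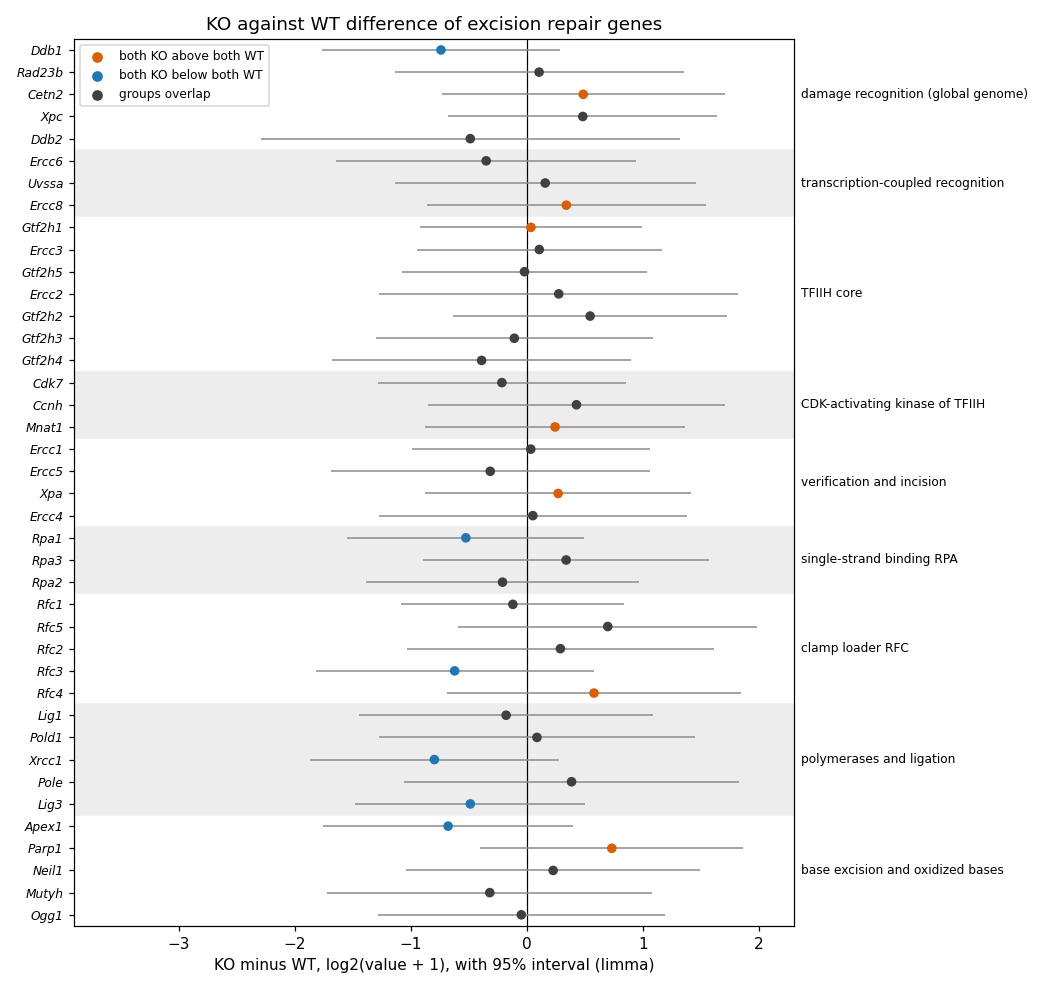
KO minus WT difference on the log2(value + 1) scale for the 40 repair genes, grouped by role, with the 95% interval from limma (bars, n = 2 per group). Orange points mark the 7 genes with both KO libraries above both WT libraries and blue points the 6 with both below. All 40 intervals cross 0, and the points run from −0.80 (Xrcc1) to 0.73 (Parp1).

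Among the genes that recognise damage across the genome, Ddb1 had the highest level per kb of exon of all 40, 23.2. DDB1 is the adaptor of CUL4 ubiquitin ligases and has many uses besides repair. Ddb1 had 159 and 213 in WT (replicate 3, then 6, as throughout), against 132 and 91.7 in KO (replicate 1, then 8). Both KO libraries were below both WT libraries (log2 difference −0.74, SE 0.44, limma adjusted p = 0.931). Its partner Ddb2, the subunit that binds the lesion, had 6.56 and 3.81 in WT, against 8.14 and 1.03 in KO. Here the groups overlapped, and KO replicate 8 was the lowest library and KO replicate 1 the highest (−0.49, SE 0.77, adjusted p = 0.997). The value in KO replicate 8 rested on 4 reads. Without that library the log2 difference of Ddb2 was 0.60.

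Xpc, which senses the distorted helix, had 13.7 and 8.26 in WT, against 18.9 and 12.4 in KO. The groups overlapped, since KO replicate 8 was below WT replicate 3 (0.48, SE 0.49, adjusted p = 0.979). Cetn2, the centrin that stabilises XPC, had 4.44 and 4.77 in WT, against 9.46 and 4.90 in KO. KO replicate 1 was high, and KO replicate 8 was close to the WT pair (0.49, SE 0.52, adjusted p = 0.982). Rad23b, which protects XPC from degradation, had 53.3 and 90.5 in WT, against 51.02 and 110 in KO. One library of each genotype was high and the other low, and the difference between genotypes was 0.11.

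In transcription-coupled recognition, Ercc6 and Uvssa differed more within a genotype than between genotypes. Ercc6, the CSB translocase, had 53.5 and 35.9 in WT, against 54.3 and 21.4 in KO, and Uvssa, which helps load TFIIH, had 32.04 and 15.9 in WT, against 36.1 and 17.8 in KO. WT replicate 3 and KO replicate 1 were the high libraries for both genes. Ercc8, the CSA subunit, had 2.12 and 2.22 in WT, against 3.52 and 2.58 in KO, on 7 to 16 reads per library. Its KO libraries were above its WT libraries by 0.34 on the log2 scale (SE 0.51, adjusted p = 0.997).

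In TFIIH, Gtf2h1 was nearly equal in all libraries. Gtf2h1, the p62 subunit, had 31.1 and 31.8 in WT, against 32.5 and 31.95 in KO. The KO libraries lay above the WT libraries by less than the value of 1 read at the nearest (log2 difference 0.04, SE 0.41, adjusted p = 0.998). Of the helicases, Ercc3 (XPB) had 14.1 and 10.5 in WT, against 14.1 and 12.4 in KO, while Ercc2 (XPD) had 18.1 and 5.08 in WT, against 16.5 and 8.76 in KO. Ercc2 was low in WT replicate 6 and KO replicate 8. Gtf2h2, the p44 subunit that stimulates XPD, had 10.04 and 6.04 in WT, against 14.7 and 9.53 in KO (0.55, SE 0.50, adjusted p = 0.970), with overlapping groups. The remaining core subunits Gtf2h3, Gtf2h4 and Gtf2h5 had log2 differences of −0.11, −0.39 and −0.02. The 3 genes of the CDK-activating kinase, which TFIIH shares with the cell cycle and with transcription, had log2 differences of −0.21 (Cdk7, the kinase), 0.43 (Ccnh, its cyclin) and 0.24 (Mnat1, the assembly factor).

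Among the genes of verification and incision, log2 differences between genotypes ran from −0.31 to 0.27. Xpa, the scaffold that checks the lesion, had 4.83 and 4.13 in WT, against 6.38 and 4.90 in KO. The KO libraries were above the WT libraries, the nearest by less than the value of 1 read (0.27, SE 0.49, adjusted p = 0.997). Ercc1, the partner of the XPF nuclease, had 12.9 and 13.03 in WT, against 12.8 and 13.9 in KO. The groups overlapped and no library stood out (0.04, SE 0.44, adjusted p = 0.998). Ercc4, the XPF nuclease itself, had 18.7 and 7.31 in WT, against 14.95 and 10.05 in KO. Ercc5, the XPG nuclease that cuts on the other side of the lesion, had 30.7 and 20.02 in WT, against 33.2 and 11.6 in KO. For both nucleases WT replicate 3 and KO replicate 1 were the high libraries, and the log2 differences were 0.05 and −0.31.

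**Figure D2:**
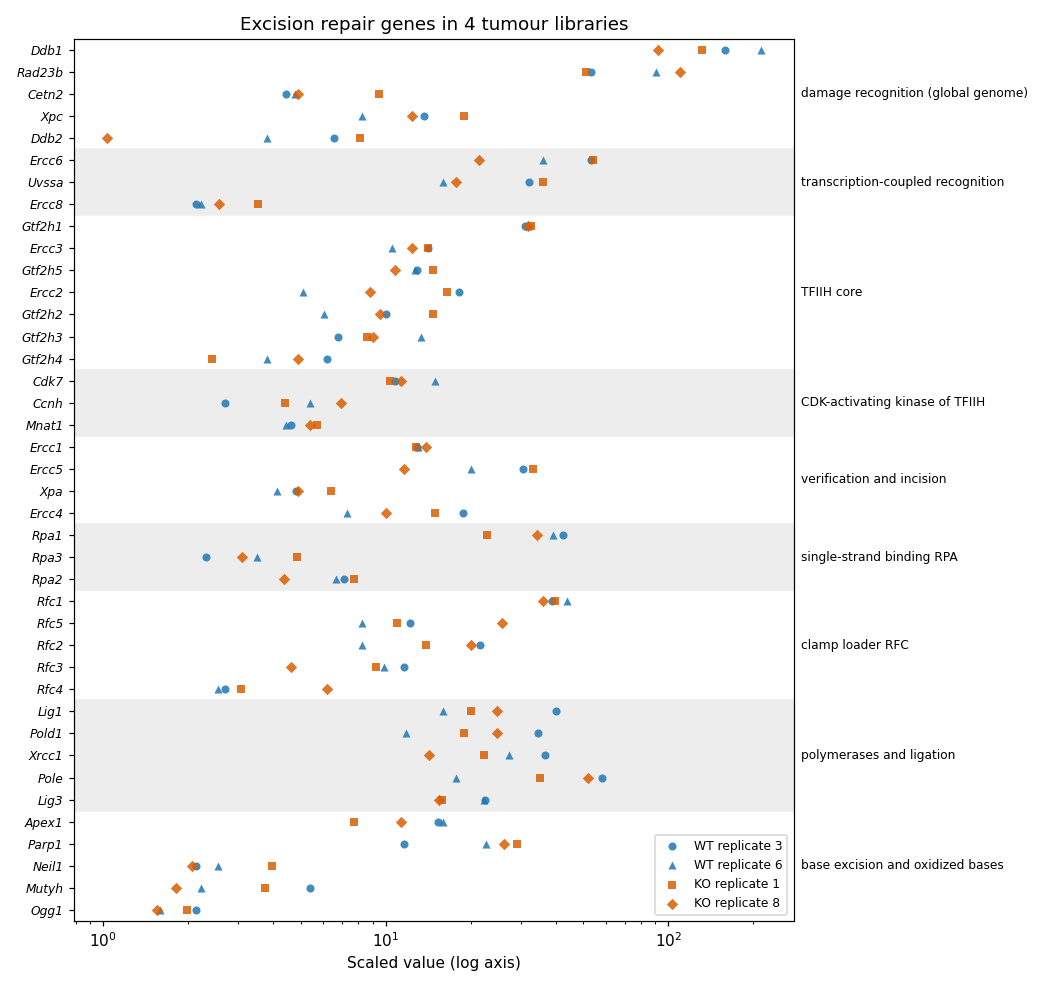
Scaled value of each of the 40 repair genes in every library on a log axis, grouped by role. Blue circles and triangles are WT replicates 3 and 6, and orange squares and diamonds are KO replicates 1 and 8. The 4 symbols nearly coincide for Gtf2h1 and Ercc1, while Ddb2 runs from 1.03 in KO replicate 8 to 8.14 in KO replicate 1.

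The promoter of Xpa and that of Parp1 are shown because these are the incision scaffold and the gene with the largest positive difference in limma, and because no exon of another gene in GENCODE lies in the window. Both sequences come from RefSeq on GRCm38.p6, whereas the study's processing names mm9, and they run 5′ to 3′ on the strand of the gene. Capitals mark GC boxes (GGGCGG) and CCAAT boxes (CCAAT) found on either strand, a reverse-strand GC box reading CCGCCC here. Parp1 (chr1:180568641-180568890, plus strand) held 3 GC boxes in 250 bases. Xpa (chr4:46196345-46196561, minus strand) held 1 CCAAT box in 217 bases, a shorter window than the 250 bases of the motif shares below.
Parp1: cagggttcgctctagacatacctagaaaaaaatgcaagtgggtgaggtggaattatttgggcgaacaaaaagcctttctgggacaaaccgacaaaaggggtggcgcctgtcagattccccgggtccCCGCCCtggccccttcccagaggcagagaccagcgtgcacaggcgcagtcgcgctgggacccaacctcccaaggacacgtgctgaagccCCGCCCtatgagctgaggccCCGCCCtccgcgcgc
Xpa: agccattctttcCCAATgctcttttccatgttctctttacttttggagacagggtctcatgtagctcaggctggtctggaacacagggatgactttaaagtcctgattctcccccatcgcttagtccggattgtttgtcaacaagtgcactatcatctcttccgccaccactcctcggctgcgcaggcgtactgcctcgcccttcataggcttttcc
Of the 40 genes 34 had a promoter in the RefSeq table. In the 250 bases before the first listed start, a GC box was found on either strand in 21 of the 34 (61.8%), beside 32.9% of 27025 gene promoters, and a CCAAT box in 17 (50%), beside 34.5%. The ETS motif CCGGAAG was found in 8 (23.5%, beside 7.05%) and the TATA box TATAAA in 1, that of Neil1 (2.94%, beside 12.97%). The E2F motifs TTTCCCGC and TTTGGCGC were found in 0 of the 34, beside 1.35% for either, and the NRF1 motif in 0, beside 0.781%. All motifs were searched on both strands, and a reverse-strand GC box can share bases with the ETS motif. The median GC content of these windows was 62.6%, beside 52% for all promoters, and motif shares were not compared at matched GC content. A match is a string of letters and not a binding site.

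The RPA and RFC genes serve replication as well as repair. Rpa1, the large subunit of the single-strand binding complex, had 42.5 and 39.1 in WT, against 22.9 and 34.3 in KO. Both KO libraries were below both WT libraries (−0.52, SE 0.43, adjusted p = 0.959). The smaller subunits Rpa2 and Rpa3 had log2 differences of −0.21 and 0.34 and likewise lay on both sides of 0.

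The clamp loader, which places the PCNA ring on DNA, had genes on both sides of 0. Rfc3 had 11.6 and 9.85 in WT, against 9.24 and 4.64 in KO, with the KO libraries below the WT libraries and KO replicate 8 lowest (−0.62, SE 0.51, adjusted p = 0.955). Rfc5 had 12.2 and 8.26 in WT, against 11.0 and 25.8 in KO. Its groups overlapped, and KO replicate 8 alone was high (0.70, SE 0.55, adjusted p = 0.954), and without that library the log2 difference was 0.12. Rfc5 shares 10.7% of its exon bases with Wsb2 on the opposite strand, and Wsb2 had 13.7 and 16.5 in WT, against 15.8 and 52.8 in KO, high in the same library. Rfc4 had 2.70 and 2.54 in WT, against 3.08 and 6.18 in KO (0.58, SE 0.54, adjusted p = 0.973, and 0.17 without KO replicate 8), on 8 to 24 reads. It shares 12.7% of its exon bases with Eif4a2 on the opposite strand. Eif4a2 had 73.3 and 56.9 in WT, against 110 and 44.8 in KO. Rfc1, the large subunit, had 38.8 and 43.8 in WT, against 39.8 and 36.1 in KO, and Rfc2 had 21.6 and 8.26 in WT, against 13.9 and 20.1 in KO. WT replicate 6 was the low library for Rfc2.

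Of the polymerase and ligase genes, 3 belong to replication as well as repair. Pole, the catalytic subunit of polymerase epsilon, had 58.5 and 17.8 in WT, against 35.2 and 51.8 in KO. Pold1, that of polymerase delta, had 34.6 and 11.8 in WT, against 18.9 and 24.7 in KO. Lig1, the ligase of replication, had 39.95 and 15.9 in WT, against 20.01 and 24.7 in KO. For all 3 genes WT replicate 3 was the highest library and WT replicate 6 the lowest, with both KO libraries between them. Xrcc1, the scaffold of single-strand break repair, had 36.5 and 27.3 in WT, against 22.2 and 14.2 in KO. Both KO libraries were below both WT libraries, and the log2 difference was the most negative of the 40 (−0.80, SE 0.46, interval −1.87 to 0.28, adjusted p = 0.927). Lig3, the ligase bound to XRCC1, had 22.4 and 22.2 in WT, against 15.8 and 15.5 in KO. The libraries of each genotype were nearly equal and the groups did not overlap (−0.49, SE 0.42, adjusted p = 0.967). Lig3 shares 25.1% of its exon bases with Rffl on the opposite strand.

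In base excision repair, Parp1 had the largest positive difference of the 40 in limma. In edgeR it was 0.74, below Rfc5 (0.92) and Rfc4 (0.88), and the order was the same in DESeq2. PARP1 binds strand breaks and builds poly(ADP-ribose) chains that recruit XRCC1. Parp1 had 11.6 and 22.6 in WT, against 29.03 and 26.3 in KO. Both KO libraries were above both WT libraries, and WT replicate 3 was the low one (0.73, SE 0.48, interval −0.40 to 1.87, adjusted p = 0.945). Apex1, the endonuclease that cuts at abasic sites, had 15.2 and 15.9 in WT, against 7.70 and 11.3 in KO. Its KO libraries were below its WT libraries (−0.68, SE 0.46, adjusted p = 0.952). Apex1 shares 61.7% of its exon bases with a gene on the opposite strand listed as Tmem55b, which had 7.14 and 10.2 in WT, against 5.06 and 5.93 in KO. In all, 13 of the 40 share exon bases with a listed gene on the opposite strand, 8 of them at 10% or more, among them Ddb2 (23.8%, with Acp2), Ercc2 (17.8%, with Klc3) and Ogg1 (10.6%, with Camk1). The strand setting of the counting is unknown here, and reads of the overlapping bases cannot be told apart.

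Of the 3 glycosylases, Ogg1 had the fewest reads, 31 in all, which was also the lowest number among the 40 genes. Ogg1, which removes oxidized guanine opposite cytosine, had 2.12 and 1.59 in WT, against 1.98 and 1.55 in KO, on 11, 5, 9 and 6 reads. The groups overlapped (−0.05, SE 0.53, adjusted p = 0.998), with an interval of −1.28 to 1.19. Mutyh, which removes adenine mispaired with oxidized guanine, had 5.40 and 2.22 in WT, against 3.74 and 1.80 in KO. Neil1, a glycosylase for oxidized pyrimidines, had 2.12 and 2.54 in WT, against 3.96 and 2.06 in KO. Both overlapped between genotypes, with log2 differences of −0.32 and 0.23.

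Within a genotype the libraries differed by more than the genotypes did for most of the 40 genes. The median absolute log2 difference over the 40 was 0.44 within the WT pair, 0.54 within the KO pair and 0.32 between the genotype means. Over all genes tested it was 0.48, 0.64 and 0.38. The larger of the within-genotype differences exceeded the difference between genotypes for 33 of the 40 genes (82.5%), beside 78.7% of all genes tested. A mean over a pair varies less than a single library, and the larger of a pair of differences is taken, so these sizes are not on an equal footing. Lig3 was among the other 7 genes, with −0.01 within the WT pair and −0.03 within the KO pair. The 95% exact binomial interval of the read ratio, which covers counting error only, excluded 1 in the WT pair for 16 of the 40 genes (40%, background 39.8%). It did so in the KO pair for 16 (40%, background 51.3%). For 18 genes, among them Xpa, Ercc1, Apex1, Lig3 and Ogg1, it included 1 in both pairs.

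Of the 16 genes apart in each pair, 10 were apart in both (25% of the 40, background 24.7%), among them Xrcc1, Ddb1, Xpc and Pole. WT replicate 6 was below WT replicate 3 for 7 of the 8 replication factors (the RFC, polymerase and Lig1 genes), with a median log2 difference of −0.89, beside −0.08 over all genes. Pole in WT replicate 6 was 0.304 times its value in WT replicate 3 (interval 0.225 to 0.406), and Pold1 was 0.340 times (0.232 to 0.487). In the KO pair these 8 genes had a median of 0.44 for replicate 8 against replicate 1. The 3 genes of transcription-coupled recognition were all lower in KO replicate 8 than in KO replicate 1, with a median of −0.98, beside −0.07 over all genes. In the WT pair 2 of these 3 were lower in replicate 6, with a median of −0.56, and Ercc6 and Uvssa were apart in both pairs. Ercc6 was at 0.394 times (0.303 to 0.507) and Ddb2 at 0.127 times (0.0328 to 0.353) of its value in KO replicate 1. Rad23b went the other way, at 2.15 times (1.83 to 2.54). The genes and groups of this paragraph were picked after their values were seen.

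**Figure D3:**
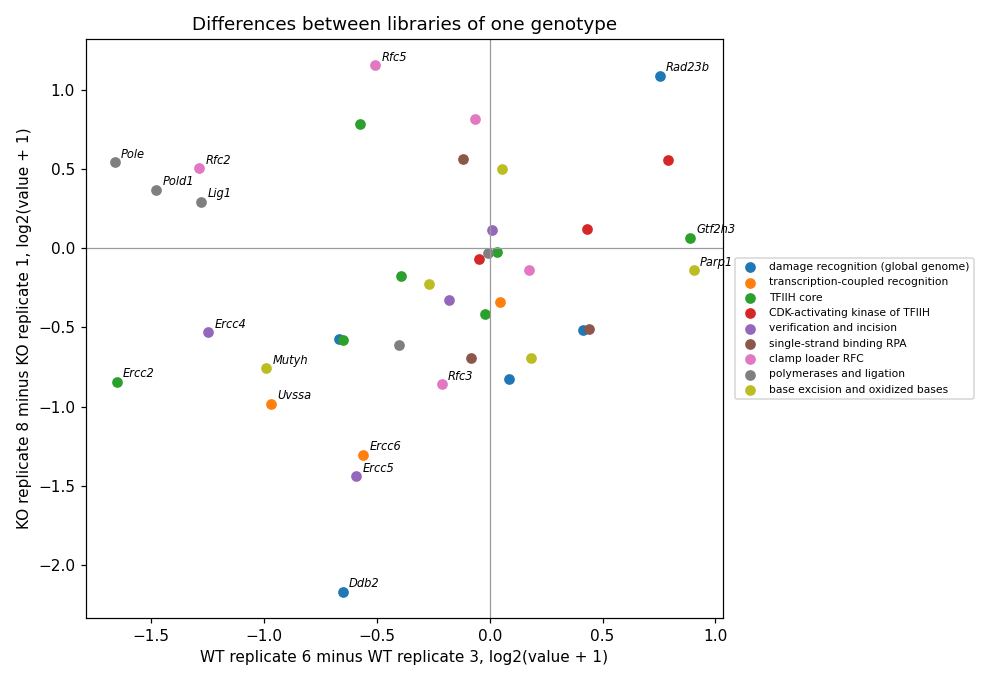
Difference between the libraries of one genotype for the 40 repair genes, on the log2(value + 1) scale: WT replicate 6 minus WT replicate 3 on the horizontal axis and KO replicate 8 minus KO replicate 1 on the vertical axis, coloured by role. Genes past 0.85 in either direction are named. Pole, Pold1, Lig1 and Rfc2 sit at the left with positive KO differences, and Ddb2 lies lowest at −2.17.

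Markers of proliferation and of other cells also differed between these libraries. The 22 proliferation genes were lower in WT replicate 6 than in WT replicate 3 for 19 members, and their values summed to 934 and 674 in WT, against 835 and 945 in KO. Mki67 had 224 and 147 in WT, against 318 and 311 in KO, and Top2a had 118 and 55.0 in WT, against 117 and 110 in KO. Between genotypes 0 of the 22 were called, with 10 lower, 12 higher and a median of 0.03, and that median moved to −0.25 with KO replicate 8 left out and to 0.38 with KO replicate 1 left out. Both KO libraries lay below both WT libraries for 5 of the 22 (background 19.3%), and above them for 3 (background 14.5%). The 5 were Mcm2, Mcm3, Mcm4 and Mcm7 of the replicative helicase and Rrm1 of nucleotide synthesis, with log2 differences of −0.54 to −0.72. Mcm5 and Mcm6 of the same helicase overlapped between the genotypes (−0.17 and 0.27). The 3 above were Bub1, Birc5 and Mki67, with log2 differences of 0.98, 0.95 and 0.79. All of these were named after their values were seen. By value, 10 of 10 keratinocyte markers were lower in KO, beside 52.5% of all genes tested. For 4 of the 10, both KO libraries lay below both WT libraries, and the others overlapped. Their median log2 difference was −1.47, or −0.48 with KO replicate 8 left out and −2.91 with KO replicate 1 left out. By value, 8 of 8 macrophage markers were higher in KO, where 52.5% of all genes tested were lower. For 7 of the 8, both KO libraries lay above both WT libraries (background 14.5%). The median was 1.48, or 1.12 with KO replicate 8 left out and 2.04 with KO replicate 1 left out. Macrophage markers summed to 35.3 and 41.3 in WT, against 90.6 and 189 in KO. Fibroblast markers (6 genes) summed to 108 and 239 in WT, against 97.6 and 850 in KO, and skeletal muscle markers (6 genes) to 2.70 and 9.22 in WT, against 13.4 and 173 in KO. Smooth muscle markers (5 genes) summed to 18.5 and 76.9 in WT, against 132 and 167 in KO. Des alone made up 114 of the sum in KO replicate 8. Acta2 overlapped between the genotypes, with 10.04 and 66.7 in WT, against 107 and 28.6 in KO. For 4 of the 5, both KO libraries lay above both WT libraries (background 14.5%). Endothelial markers (6 genes) summed to 22.8 and 33.04 in WT, against 18.9 and 20.4 in KO. Of the B and plasma cell list only Jchain was listed, with none of its reads in WT and 36 and 31 in the KO libraries. Of the 6 T cell markers looked for, 0 were among the listed genes. The part of these cells in the values of the repair genes was not tested.

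Per length, Ddb1 and Rad23b led. Values were divided by the exon length of each gene in GENCODE M21 (GRCm38), and the mean of the 4 libraries then ranged from 0.341 per kb for Ercc8 to 23.2 per kb for Ddb1, with a median of 2.98 per kb. Rad23b followed with 13.3 per kb, Gtf2h1 with 10.7, Apex1 with 8.82, Rfc1 with 6.58 and Rpa1 with 6.22 per kb. The lowest after Ercc8 were Ogg1 with 0.827 per kb and Mnat1 with 0.938. Of the 39 neighbouring pairs in this order, 38 overlapped over the 4 libraries. The exception was the last, in which Ercc8 (0.277 to 0.460 per kb) lay below Ogg1 (0.707 to 0.971). The order is that of RNA and rests on gene models that the authors' counting may not share.

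**Figure D4:**
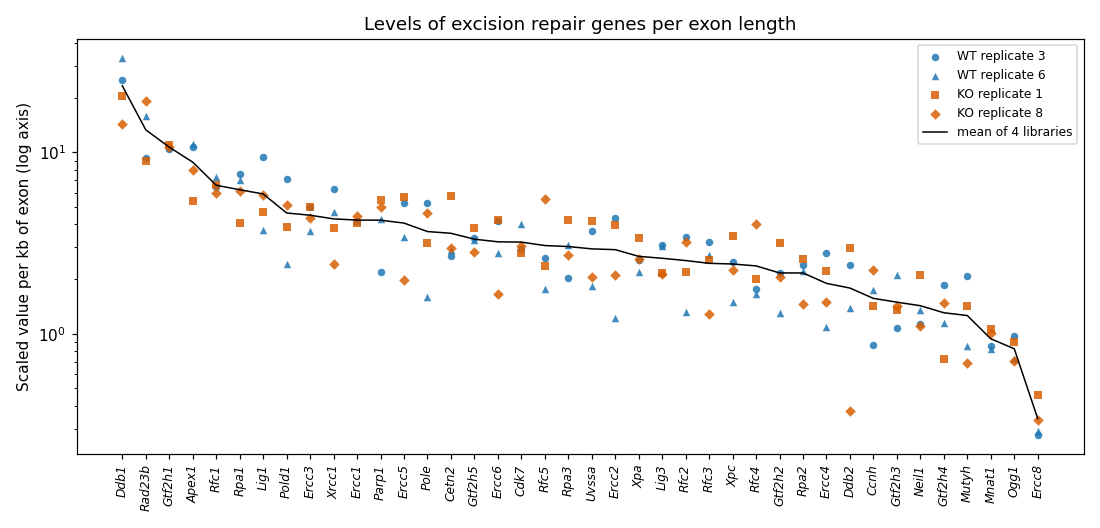
Scaled value per kb of exon for the 40 repair genes in each library, on a log axis, ordered by the mean of the 4 libraries (line). Symbols are as in the plot of values by role. The mean runs from 23.2 per kb for Ddb1 to 0.341 per kb for Ercc8, and the libraries of neighbouring genes overlap except at the low end.

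Other excision repair genes, outside the 40, gave no call either. Of 33 such genes 32 were tested, of which 16 were lower and 16 higher in KO and 0 passed the threshold, with a median log2 difference of −0.0025. In limma, 1 of the 32 had an unadjusted p under 0.05, beside 5.25% of all genes tested. It was Pcna, the sliding clamp that RFC loads. Pcna had 78.4 and 68.6 in WT, against 41.1 and 33.2 in KO. Both KO libraries were below both WT libraries (−0.97, SE 0.41, limma adjusted p = 0.926). Fen1, the flap endonuclease of long-patch repair and of Okazaki fragments, had 30.1 and 19.1 in WT, against 11.9 and 10.6 in KO (−1.03, SE 0.46, adjusted p = 0.926). Cul4a, the cullin that carries DDB1, had 21.04 and 32.1 in WT, against 46.8 and 51.02 in KO (0.89, SE 0.44, adjusted p = 0.926). Pole3 had 5.21 and 9.85 in WT, against 12.1 and 13.4 in KO (0.74, adjusted p = 0.949). These 4 genes, picked by their small p, did not overlap between the genotypes. Over the 32, both KO libraries lay below both WT libraries for 5 (background 19.3%) and above them for 3 (background 14.5%).

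**Figure D5:**
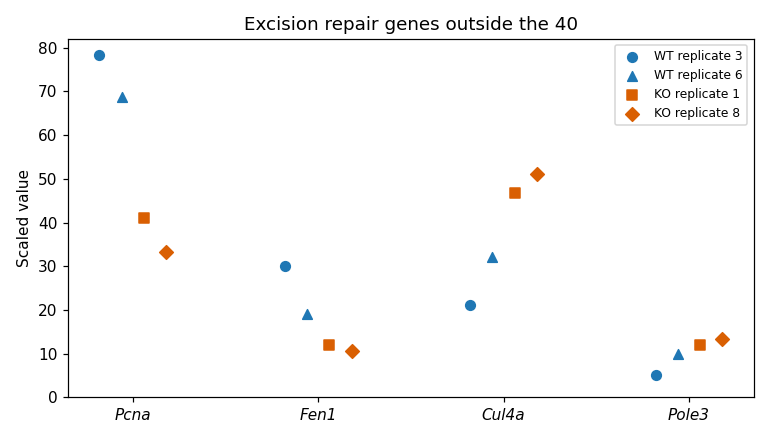
Scaled values of the 4 excision repair genes outside the 40 with the smallest unadjusted p, in each library (blue WT, orange KO). Pcna and Fen1 have both KO libraries below both WT libraries, and Cul4a and Pole3 have both above. None passed the adjusted threshold.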

How the data were processed

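Per the labels' protocols, tumour RNA came from a Trizol extraction and the library kit was TruSeq RNA. The authors deposited read signal scaled per library, and in each column at least 99.986% of values are a whole multiple of one step (tolerance 0.001), so reads were recovered by dividing by that step. The submitters' processing notes name DESeq and build mm9, while aligner, counter and strand setting are not given in the sources used. The authors' log2 fold changes and p-values, per the file headers, were used only where their deposited table is named.

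The 12304 genes reaching 1 in 2 or more libraries were tested with limma 3.58.1 in R 4.3.3 on log2(value + 1), which understates differences of low genes, with a trended prior, genotype as the sole term, two-sided, Benjamini-Hochberg adjustment over all genes and a threshold of 0.05. An exact permutation of 2 against 2 libraries cannot reach this threshold. Alternatives on the recovered reads were edgeR 4.0.16 (quasi-likelihood, filterByExpr) and DESeq2 1.42.0. The pipeline was tested on simulated data. The median gene had 22 to 39 reads per library, and counting intervals do not cover PCR duplication.

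The 40 genes, the other lists and the design were chosen with earlier results of these data known. Library values were given for the 12 repair genes with the smallest p, for non-overlapping genes with an absolute difference of at least 0.5 and for 7 entry genes of the steps. Values of further repair genes were added after they were seen. Of the other excision repair genes the 5 with the smallest p were to be named, and 1 is not reported here.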

Additional observations from a re-analysis of the deposited data

How the results depend on the processing

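No paired analysis was made because the labels name no pairs of WT and KO libraries. None of the 40 genes passed the threshold under any of the 11 alternatives: quantile normalization, TMM factors from protein-coding genes, no trend, no filter, a pseudocount of 0.1, edgeR's quasi-likelihood test (39 of the 40 tested), DESeq2 and leaving out each library. Among the alternatives that kept every library, their smallest adjusted p was 0.924, for Xrcc1 in limma without a trend. Without KO replicate 1, Ddb2 had a log2 difference of −1.57. The count of genes called in the whole table, 1 in limma, was 2 with no filter, 0 with a pseudocount of 0.1, 0 in edgeR's quasi-likelihood test (520 at an unadjusted p under 0.05) and 54 in DESeq2, and lay between 0 and 510 when each library was dropped (510 without KO replicate 1, 6 without KO replicate 8). The number of repair genes lower in KO lay between 14 and 23 when each library was dropped, and their median log2 difference between −0.13 and 0.13. Another scaling changed the sign of Ogg1 (0.028) and Gtf2h5 (0.014) under quantile normalization and of Gtf2h5 with TMM factors (0.025). Pold1 was −0.0072 in edgeR and −0.016 in DESeq2, Gtf2h5 0.045 and 0.049, and Ercc4 −0.00043 in edgeR. These 4 genes lay within 0.0883 of 0 in limma. The median log2 difference of all genes was 0.07 in DESeq2, beside −0.03 in limma. Over the libraries left out, the sign changed for 21 genes, whose log2 differences ranged as follows: Gtf2h4 −0.78 to 0.0046, Ercc6 −1.002 to 0.30, Ddb2 −1.57 to 0.60, Pole −0.44 to 1.22, Ercc5 −1.03 to 0.41, Mutyh −0.81 to 0.18, Rfc2 −0.35 to 0.93, Cdk7 −0.43 to 0.0021, Neil1 −0.12 to 0.58, Ercc2 −0.55 to 1.10, Rpa2 −0.55 to 0.14, Lig1 −0.82 to 0.46, Uvssa −0.33 to 0.65, Ercc3 −0.088 to 0.31, Gtf2h3 −0.55 to 0.34, Rad23b −0.44 to 0.65, Pold1 −0.65 to 0.83, Ercc4 −0.57 to 0.68, Ogg1 −0.18 to 0.089, Ercc1 −0.023 to 0.094, Gtf2h5 −0.23 to 0.19. The cause was not tested. S100a14 was past the threshold neither with a pseudocount of 0.1 (adjusted p = 0.0541) nor in edgeR (0.0826), nor without WT replicate 3 (0.505) or WT replicate 6 (0.361). Its log2 difference was −9.04, −9.34, −6.63 and −6.33 in these, beside −6.48. Reads per library ranged from 4 to 825 over the 40 genes.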
